A study of Mus musculus with 8 samples.

Results

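The 10 genes H2-K1, H2-D1, B2m, Tap1, Tap2, Tapbp, Psmb8, Psmb9, Psmb10 and Nlrc5 encode the parts of the major histocompatibility complex (MHC) class I pathway, and were chosen by symbol from the 54752 genes of the deposited count tables. The tables hold RNA-seq counts of the right cerebral cortex of 8 WT (wild-type) adult male C57BL/6 mice (C57BL/6 J in the study's methods), 1 mouse per library, taken 3 weeks after surgery. In the BCAS group (bilateral carotid artery stenosis, n = 4) a wire microcoil was placed around each common carotid artery to lower blood flow to the brain, with the narrower coil on the right, the side that was sequenced. The sham group (n = 4) underwent surgery without coils, and the mice of both groups were wild type throughout. The question here was how each step of class I presentation, from peptide cutting to the surface molecule, differed between BCAS and sham cortex. Each library is a mixture of cells, so that a change in the number of cells of a type and a change in RNA per cell cannot be told apart in these bulk libraries.

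Class I molecules carry peptides from inside the cell to its surface, where CD8 T cells and natural killer cells read them. A heavy chain, such as H2-K1 or H2-D1, pairs with the light chain beta-2-microglobulin (B2m). The peptides are cut by the proteasome, pumped into the endoplasmic reticulum by the transporter made of Tap1 and Tap2, and loaded onto the heavy chain with the help of tapasin (Tapbp). Interferons are known to induce most of these genes, and also the immunoproteasome subunits Psmb8, Psmb9 and Psmb10, which replace the constitutive subunits Psmb5, Psmb6 and Psmb7 in the catalytic core. Nlrc5 is a transactivator that is recruited to class I promoters. In the healthy brain, neurons and glia are known for low class I levels, and microglia for rising levels in inflammation.

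Most of these genes sit close together in the MHC on chromosome 17. In GENCODE vM20 coordinates of the mm10 build, H2-K1 (ENSMUSG00000061232.15) lies at chr17:33996017-34000333 on the minus strand and H2-D1 (ENSMUSG00000073411.11) at chr17:35262730-35267499 on the plus strand. Between them lie Psmb9 (ENSMUSG00000096727.2, chr17:34181988-34187764, minus strand), Tap1 (ENSMUSG00000037321.17, chr17:34187553-34197225, plus strand), Psmb8 (ENSMUSG00000024338.14, chr17:34197721-34201454, plus strand) and Tap2 (ENSMUSG00000024339.12, chr17:34203527-34216321, plus strand), one after another. Tapbp (ENSMUSG00000024308.15) is at chr17:33915899-33929292 on the plus strand. Outside the MHC are B2m (ENSMUSG00000060802.8, chr2:122147686-122153083, plus strand), Psmb10 (ENSMUSG00000031897.9, chr8:105935735-105938444, minus strand) and Nlrc5 (ENSMUSG00000074151.13, chr8:94434356-94527272, plus strand).

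Promoter windows of RefSeq (build GRCm38.p6, 250 bases before the transcript start and 50 after it) were held for 8 of the 10 genes, and not for Tap2 and Nlrc5. They were searched on both strands for 6 short motifs: the interferon-stimulated response element GAAANNGAAA, the interferon regulatory factor (IRF) core AANNGAAA, which the former motif contains, the gamma-activated site TTCNNNGAA, the NF-kB site GGGNNTTNCC, the cyclic AMP response core TGACG and the CCAAT box. A match is a description of the letters and not evidence of binding. The windows of H2-K1, H2-D1, B2m and Tap1, 4 genes that were higher in BCAS cortex, are printed with that of Psmb10, the only gene of the 10 not called, each in the direction of its gene with all matches in capitals.
H2-K1, chr17:34000298-34000597, minus strand: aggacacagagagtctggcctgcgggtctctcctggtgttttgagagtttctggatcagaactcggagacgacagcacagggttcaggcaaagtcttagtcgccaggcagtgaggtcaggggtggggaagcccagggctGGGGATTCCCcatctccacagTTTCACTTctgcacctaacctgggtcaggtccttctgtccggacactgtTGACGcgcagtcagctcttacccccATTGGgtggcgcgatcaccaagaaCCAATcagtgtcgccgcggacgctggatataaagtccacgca
H2-D1, chr17:35262844-35263143, plus strand: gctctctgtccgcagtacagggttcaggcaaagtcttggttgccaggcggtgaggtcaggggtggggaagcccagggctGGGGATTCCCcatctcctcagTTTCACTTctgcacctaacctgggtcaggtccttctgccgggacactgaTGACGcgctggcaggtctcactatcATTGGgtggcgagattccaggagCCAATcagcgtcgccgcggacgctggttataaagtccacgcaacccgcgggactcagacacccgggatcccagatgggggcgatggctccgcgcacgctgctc
B2m, chr2:122147437-122147736, plus strand: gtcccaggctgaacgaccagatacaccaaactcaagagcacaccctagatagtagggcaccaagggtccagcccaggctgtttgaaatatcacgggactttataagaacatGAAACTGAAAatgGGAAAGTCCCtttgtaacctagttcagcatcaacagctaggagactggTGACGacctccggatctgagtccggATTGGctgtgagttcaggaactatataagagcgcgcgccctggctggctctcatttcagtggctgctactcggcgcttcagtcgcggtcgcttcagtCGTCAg
Tap1, chr17:34187306-34187605, plus strand: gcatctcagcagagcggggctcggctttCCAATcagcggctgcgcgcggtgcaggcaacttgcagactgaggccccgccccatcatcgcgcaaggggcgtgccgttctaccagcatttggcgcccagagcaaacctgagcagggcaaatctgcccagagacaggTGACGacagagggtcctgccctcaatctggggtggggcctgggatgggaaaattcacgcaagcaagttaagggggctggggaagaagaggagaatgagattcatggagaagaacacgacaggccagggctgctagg
Psmb10, chr8:105938343-105938642, minus strand: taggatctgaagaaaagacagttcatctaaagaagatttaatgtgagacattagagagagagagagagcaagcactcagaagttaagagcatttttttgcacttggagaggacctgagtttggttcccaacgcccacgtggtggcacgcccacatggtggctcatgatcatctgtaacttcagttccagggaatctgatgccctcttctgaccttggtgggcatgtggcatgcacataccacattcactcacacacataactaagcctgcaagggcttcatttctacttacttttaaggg

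Both heavy chain windows held the same series of matches in the same order. In H2-K1 the NF-kB letters GGGGATTCCC began at -111 and the IRF core, read as TTTCACTT, at -90 from the transcript start, followed by TGACG at -41, a reversed CCAAT box at -16 and a forward one at 8. The H2-D1 window held GGGGATTCCC at -171, TTTCACTT at -150, TGACG at -101 and CCAAT boxes at -76 and -53. Over the 239 bases that align, 211 (88.3%) were identical, so the windows are not independent examples. B2m was alone among the 8 genes in holding the full interferon-stimulated response element, GAAACTGAAA at -139, next to a reversed NF-kB site, GGAAAGTCCC, at -126. Of all 32851 windows, 3.44% held the interferon-stimulated response element, 23.9% the IRF core, 4.79% the NF-kB site, 8.30% the gamma-activated site, 20.8% TGACG and 37.4% CCAAT. Tap1 and Psmb9 are transcribed away from each other, and their windows share 275 bases, with TGACG and a CCAAT box in them. The Psmb8 window held a gamma-activated site (TTCCCAGAA at -97), the Tapbp window had CCAAT boxes alone, and none of the 6 motifs was in the Psmb10 window. Windows of constitutive subunits that were not called held matches too. Psmb5 had TGACG at -47, and Psmb6 had a reversed IRF core at -70 and TGACG at -58 (reversed) and -9.

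The total counts ranged from 16759364 to 21794435 per library, where 3 counts amount to 0.187 CPM (counts scaled to a common library size, after TMM scaling) in the smallest one. Of 17136 genes with enough counts to test, 1877 (11%) were called higher in BCAS mice and 220 (1.28%) lower by edgeR's quasi-likelihood test, at a Benjamini-Hochberg adjusted p under 0.05 and a log2 fold change beyond 1 in size. The number called lower was 86 without sham mouse 1 and 559 without BCAS mouse 2. Marker transcripts of several cell types moved with the groups. All 8 microglial markers were called higher, with summed levels of 341 to 414 CPM in sham and 1260 to 4525 CPM in BCAS mice. Summed markers of T and NK cells were 2.29 to 4.68 CPM in sham and 5.61 to 53.0 CPM in BCAS mice, those of monocytes and neutrophils were 0.724 to 1.498 and 3.55 to 81.1 CPM (with Ly6g at 0 counts in all 8 libraries), and those of B cells 0.511 to 1.25 and 2.16 to 20.9 CPM. Most genes of these 3 lists were near 0 in sham mice and too low to test. Summed markers of border-associated macrophages were 12.7 to 15.7 CPM in sham and 21.9 to 57.4 CPM in BCAS mice, with 2 of 4 called higher. The 5 markers of cortical excitatory neurons were present in every library, with summed levels of 1923 to 2160 CPM in sham and 603 to 1658 CPM in BCAS mice, and 1 of them was called lower. Of 5 astrocyte markers, 4 passed the adjusted p as higher and Aqp4 was called (log2 fold change 1.65), with summed levels of 4149 to 4888 CPM in sham and 4835 to 5641 CPM in BCAS mice. Striatal markers were at 130.1 CPM in BCAS mouse 4 and at 29.0 to 69.8 CPM in the other 7 libraries. Sham mouse 3 stood apart with 750 CPM of choroid plexus markers, against 12.3 to 43.6 CPM in the other sham mice. What part these shifts have in the values below was not tested.

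Of the 10 genes, all passed the filter on low counts and 9 were called higher in BCAS cortex, where 11% of all tested genes were. Psmb10 was the exception. The median log2 fold change over the 10 genes was 3.40 (range 0.28 to 4.18), and that over all tested genes was -0.01. For the 9 called genes the lowest BCAS mouse was above the highest sham mouse, which held for 18.5% of the tested genes. The same 9 genes were called without sham mouse 3, and also without any other single mouse.

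**Figure D1:**
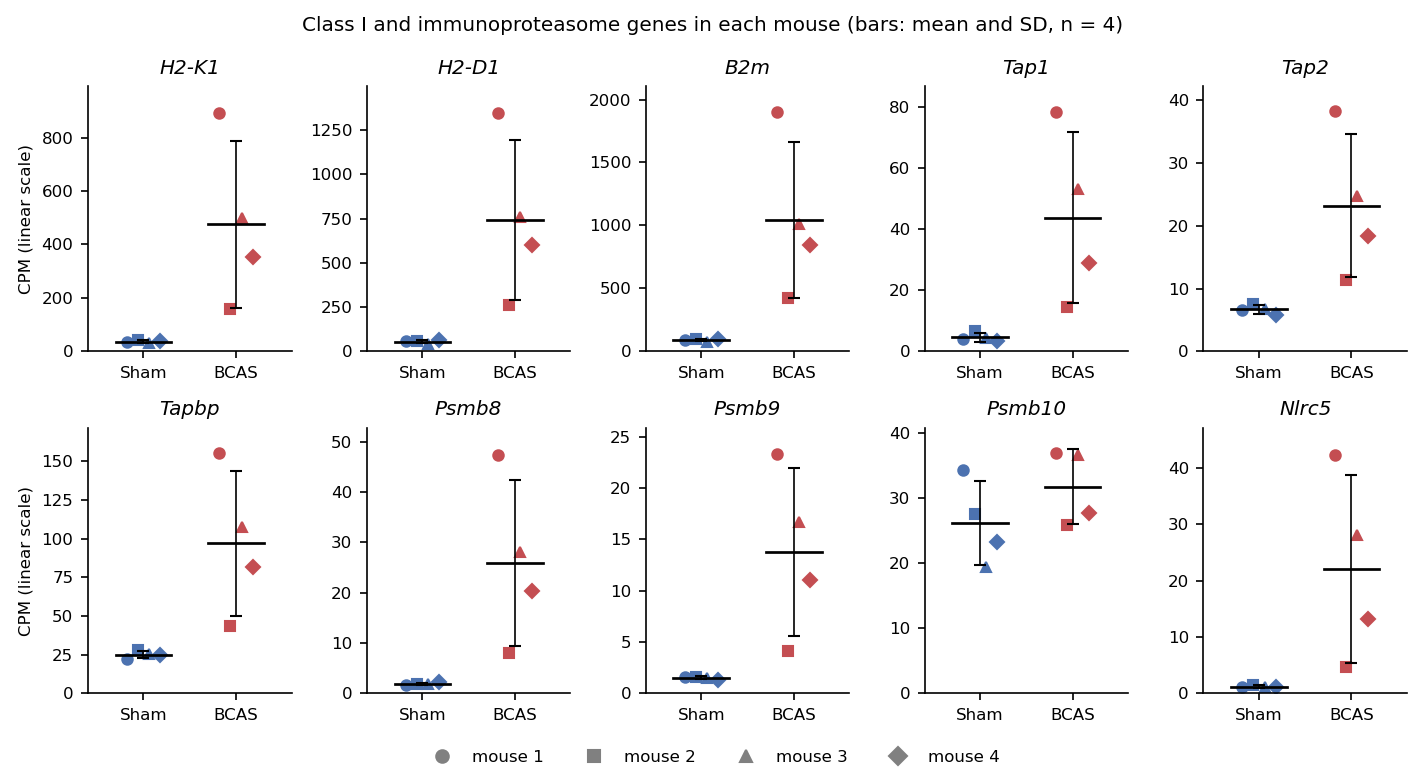
Level of each gene in each mouse, in CPM on a linear axis from 0 with its own scale per gene; symbols are mice, horizontal lines group means and error bars 1 SD (n = 4). The BCAS mice lie above the sham mice for all genes but Psmb10, with BCAS mouse 1 highest and BCAS mouse 2 lowest for each.

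The classical heavy chains H2-K1 and H2-D1, which present peptides to CD8 T cells, both rose. H2-K1 was at 35.0, 41.0, 29.9 and 39.1 CPM in sham mice 1 to 4, and at 893, 158, 499 and 352 CPM in BCAS mice 1 to 4. The groups did not overlap, and the lowest BCAS mouse was 3.87 times the highest sham mouse. The mean went from 36.3 ± 4.91 to 476 ± 311 CPM (SD, n = 4 each), a log2 fold change of 3.71 (SE 0.47) with an adjusted p of 0.00206 by edgeR's quasi-likelihood test.

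H2-D1 was at 56.8, 60.4, 41.0 and 62.1 CPM in the sham mice and at 1349, 264, 757 and 600 CPM in the BCAS mice. Again BCAS mouse 1 was far above the rest and BCAS mouse 2 nearest to the sham mice, yet 4.25 times the highest of them. The log2 fold change was 3.75 (SE 0.45, edgeR adjusted p = 0.00195). Within each library the ratio of H2-K1 to H2-D1, as CPM per kilobase of exon, was close to constant, at 0.610 to 0.721 in sham and 0.579 to 0.655 in BCAS mice. On the log2 scale the ratio was -0.61 ± 0.11 in sham and -0.69 ± 0.09 in BCAS mice (SD, n = 4 each), and the difference of -0.08 (-0.12 to -0.03 with 1 mouse left out) was within the spread (exact permutation test, two-sided p = 0.286, also 0.286 after adjustment over 5 ratios).

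B2m, the light chain that every class I molecule needs, was the most abundant gene of the 10 per length in both groups. Its level was 93.3, 95.0, 75.3 and 94.7 CPM in the sham mice and 1897, 426, 1010 and 841 CPM in the BCAS mice. The lowest BCAS mouse was 4.49 times the highest sham mouse, the widest gap of the 10 genes. Its log2 fold change was 3.54 (SE 0.41, edgeR adjusted p = 0.00181). The ratio of both heavy chains together to B2m, per kilobase and on the log2 scale, was -1.57 ± 0.09 in sham and -1.41 ± 0.14 in BCAS mice (SD, n = 4 each). This difference of 0.16 did not pass the test (exact permutation p = 0.114, adjusted 0.179), and with 1 mouse left out the adjusted p ranged from 0.0476, without BCAS mouse 2 (difference 0.22), to 0.286, without sham mouse 3 (exact permutation tests).

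Both subunits of the peptide transporter rose. Tap1 was at 3.98, 6.68, 4.35 and 3.38 CPM in sham mice and at 78.1, 14.6, 53.1 and 29.0 CPM in BCAS mice. Tap2, its partner in the pump, was at 6.59, 7.61, 6.81 and 5.79 CPM in sham mice and at 38.2, 11.3, 24.8 and 18.4 CPM in BCAS mice. The mean of Tap1 went up 9.51-fold and that of Tap2 3.46-fold, with log2 fold changes of 3.25 (SE 0.50) and 1.79 (SE 0.33) and edgeR adjusted p-values of 0.00347 and 0.00650. Whether the fold changes differ from each other was not tested. Per kilobase of exon, Tap2 was above Tap1 in sham mice (1.77 ± 0.198 against 0.839 ± 0.264 CPM per kilobase, SD, n = 4), with no overlap, while in BCAS mice Tap1 was at 7.98 ± 5.09 and Tap2 at 6.13 ± 3.02 CPM per kilobase and the ranges overlapped. Reads were counted without strand, and 18.5% of the Tap2 exon bases are also covered by genes on the opposite strand (Gm15821 and Gm20496), as are 3.87% of those of Tap1 (by Psmb9).

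Tapbp, the bridge between the transporter and the empty heavy chain, had 22.2, 27.8, 25.3 and 24.7 CPM in sham mice and 155, 43.5, 107 and 81.8 CPM in BCAS mice. No BCAS mouse was below 1.57 times the highest sham mouse. The log2 fold change was 1.96 (SE 0.33, edgeR adjusted p = 0.00469). Other genes (Gm19412 on the opposite strand and Zbtb22 on the same strand) cover 29% of its exon bases, so its level is less certain than those of H2-K1, H2-D1 and B2m, which share no exon bases with another gene. Exact repeats elsewhere were rare for the heavy chains. Of the 100-base stretches, 0.957% of those of H2-K1 and 3.59% of those of H2-D1 recur in another gene, mostly of the H2-Q and H2-T series. Near matches, with any base changed, were not searched for, so how common they are is not known from this count.

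Of the 3 immunoproteasome subunits, Psmb8 and Psmb9 rose and Psmb10 did not pass the test. Psmb8, the replacement for Psmb5, was at 1.71, 1.81, 1.89 and 2.23 CPM in sham mice and at 47.4, 8.04, 28.0 and 20.3 CPM in BCAS mice. Its log2 fold change of 3.76 (SE 0.50, edgeR adjusted p = 0.00237) was next to those of the heavy chains in size. Psmb9, the replacement for Psmb6, was at 1.65, 1.62, 1.49 and 1.33 CPM in sham mice, that is 22 to 29 counts per library. In BCAS mice it was at 23.3, 4.12, 16.7 and 11.01 CPM, and the log2 fold change was 3.18 (SE 0.48, edgeR adjusted p = 0.00334). Both genes were above every sham mouse even in BCAS mouse 2, at 3.60 and 2.50 times the highest sham value. Psmb9 shares 5.79% of its exon bases with Tap1 and Psmb8 6.8% with Gm20496, in both cases on the opposite strand.

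Psmb10, the replacement for Psmb7, was well expressed in both groups. Sham mice had 34.3, 27.6, 19.3 and 23.2 CPM and BCAS mice 36.8, 25.9, 36.6 and 27.7 CPM. The groups overlapped, with sham mouse 1 above BCAS mice 2 and 4. Its mean was 26.1 ± 6.43 CPM in sham and 31.8 ± 5.77 CPM in BCAS mice (SD, n = 4 each), a log2 fold change of 0.28 (SE 0.19) that did not pass the test (edgeR adjusted p = 0.276). In sham cortex it was also the subunit with by far the highest level of the 3, at 15.3 ± 3.77 CPM per kilobase against 0.698 ± 0.0836 for Psmb8 and 0.416 ± 0.0402 for Psmb9.

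**Figure D2:**
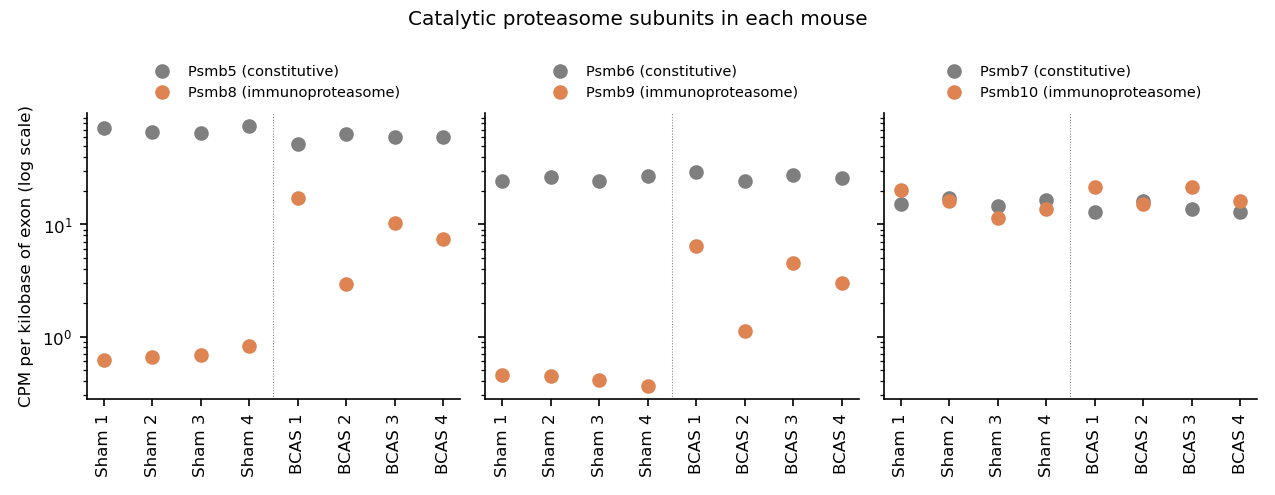
Level of each immunoproteasome subunit (orange) and of the constitutive subunit it replaces (grey) in each mouse, in CPM per kilobase of exon on a log axis, 1 point per mouse. Psmb8 and Psmb9 lie far below Psmb5 and Psmb6 in sham mice and nearer to them in BCAS mice, whereas Psmb10 and Psmb7 lie at like levels in all mice.

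The constitutive subunits were not called. Psmb5 had a log2 fold change of -0.24 (SE 0.09), Psmb6 of 0.07 (SE 0.08) and Psmb7 of -0.19 (SE 0.10), with edgeR adjusted p-values of 0.0604, 0.525 and 0.163. Psmb5 alone had an unadjusted p under 0.05, and DESeq2 and limma-voom called none either. The ratio of Psmb8 to Psmb5 per kilobase was 0.00859 to 0.0109 in sham mice, while it was 0.330, 0.0454, 0.171 and 0.124 in BCAS mice 1 to 4. On the log2 scale it was -6.65 ± 0.15 in sham and -2.91 ± 1.19 in BCAS mice (SD, n = 4 each), a difference of 3.75 with no overlap. For Psmb9 to Psmb6 the ratio was 0.0134 to 0.0186 in sham mice, compared with 0.218, 0.0459, 0.167 and 0.116 in BCAS mice, with log2 means of -5.94 ± 0.20 and -3.09 ± 0.98 and a difference of 2.86, again with no overlap. Each gave p = 0.0286 in the exact two-sided permutation test, the smallest that 70 arrangements of the mice allow, and 0.0714 after adjustment over the 5 ratios, which is above 0.05. With 1 mouse left out, the differences were 3.31 to 4.27 and 2.56 to 3.31. The adjusted p of both ratios was then 0.0476 without BCAS mouse 2, 0.0714 without any other BCAS mouse and 0.143 without any one sham mouse (exact permutation tests). With so few mice it moves in coarse steps, so it is no measure of stability. The Psmb10 to Psmb7 ratio was 0.774 to 1.33 in sham mice and 0.936 to 1.69 in BCAS mice, and its log2 difference of 0.49 did not pass the test (exact permutation p = 0.143, adjusted 0.179).

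Of the summed level per kilobase of all 6 catalytic subunits, the immunoproteasome genes made up 15.9, 13.6, 10.58 and 11.1% in sham mice, against 32.4, 15.4, 26.4 and 21.3% in BCAS mice. The means were 12.8 ± 2.47% and 23.9 ± 7.23% (SD, n = 4 each), and BCAS mouse 2 was below sham mouse 1. Constitutive transcripts thus remained the larger share in every library. In sham mice nearly all of the immunoproteasome share was Psmb10.

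No other gene of the proteasome core was called. Of 12 tested subunits of the 20S core and its assembly, none was called or passed edgeR's adjusted p in either direction, with log2 fold changes of -0.16 to 0.07, and 1 had an unadjusted p under 0.05. DESeq2 and limma-voom passed none of the 12 either. All 18 genes of the 19S regulatory particle, the cap that unfolds tagged proteins, had log2 fold changes below 0 (-0.45 to -0.01), and 6 of them (7 with DESeq2) passed the adjusted p without reaching the fold threshold. For comparison, 12.8% of all tested genes passed the adjusted p as lower and 19.2% as higher. The interferon-inducible activator (PA28), a cap of the core that is made from Psme1 and Psme2, was different. Psme1 went from 23.4 ± 2.03 to 52.3 ± 15.5 CPM (SD, n = 4 each; log2 fold change 1.16, SE 0.19, edgeR adjusted p = 0.00471). Psme2 went from 11.3 ± 0.665 to 22.3 ± 6.47 CPM, and with a log2 fold change of 0.98 (adjusted p = 0.00839) it was under the fold threshold. Psme1 was not called without BCAS mouse 1 (log2 fold change 0.965), and Psme2 was called in 5 of 18 alternatives, with log2 fold changes of 1.00 to 1.12, including the fits without sham mouse 2, BCAS mouse 2 or BCAS mouse 4. Psme2b, a near copy of Psme2 whose shared reads were not counted, had a log2 fold change of 1.71. Psme3, the nuclear activator, was lower, at -0.30 (adjusted p = 0.0289), and Psme4 was at -0.02.

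Nlrc5, the class I transactivator, had the lowest level per length of the 10 genes and, with edgeR, the largest log2 fold change. With limma on log2(CPM + 1), which lowers the fold of genes with few counts, its log2 fold change was 3.02, below those of H2-D1 (3.52), H2-K1 (3.43) and B2m (3.34). Its level was 1.080, 1.498, 1.144 and 1.147 CPM in the sham mice, which is 19 to 24 counts per library. In the BCAS mice it was 42.3, 4.74, 28.1 and 13.1 CPM. BCAS mouse 1 was thus 8.92 times BCAS mouse 2, the widest spread within a group among these genes, and even so BCAS mouse 2 was 3.16 times the highest sham mouse. The log2 fold change was 4.18 (SE 0.64, edgeR adjusted p = 0.00347), at rank 170 of the 17136 tested genes. Only 0.918% of its exon bases are covered by another gene.

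Of 14 tested genes of the transcription factors that act on class I promoters, 6 were called higher and none lower, against 11% and 1.28% of all tested genes, with a median log2 fold change of 0.96. Several factors that bind the interferon elements were among them. Irf8, a factor of myeloid cells and microglia, went from 5.26 to 8.92 CPM over the sham mice to 40.3 to 193 CPM over the BCAS mice (log2 fold change 3.96, SE 0.45, edgeR adjusted p = 0.00176). Irf1 had a log2 fold change of 1.74 and Stat2 of 1.15, while Irf2 was at 0.39 (adjusted p = 0.109). Among NF-kB subunits, Nfkb1 was called at 1.66 and Rela, at 0.97, passed the adjusted p alone. Ciita, the relative of Nlrc5 that acts on class II genes, had a log2 fold change of 2.24 (SE 0.56, edgeR adjusted p = 0.0193). Its call was lost with limma-voom (adjusted p = 0.0740) and without sham mouse 1, 2 or 4 or BCAS mouse 3 (0.0503 to 0.0581), and that of Stat2 without BCAS mouse 1 (log2 fold change 0.91). The subunits of the RFX complex, which recruits Nlrc5, were near level. Rfx5 was at 0.30 (adjusted p = 0.0427), Rfxank at 0.23 and Rfxap at -0.33, neither of which passed. NF-Y subunits, which bind CCAAT boxes, went apart, with Nfya at 0.94 and Nfyb at -0.54, both past the adjusted p without reaching the fold threshold, and Nfyc at -0.13.

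Several other class I heavy chains were called higher as well. Of 30 further class I heavy chain symbols of the MHC, 26 were in the tables and 14 could be tested, of which 11 were called higher and none lower, against 11% and 1.28% of all tested genes (median log2 fold change 1.55). The Qa-2 genes H2-Q7 and H2-Q6 were at 1.83 ± 0.433 and 2.54 ± 1.07 CPM in sham and at 38.4 ± 29.8 and 46.8 ± 30.4 CPM in BCAS mice (SD, n = 4 each). Their log2 fold changes were 4.39 (SE 0.62) and 4.21 (SE 0.55), with edgeR adjusted p-values of 0.00280 and 0.00223, and that of H2-Q5, with 3 to 15 counts in the sham mice, was 4.15. H2-Q5 passed the filter with the help of its counts in BCAS mice, which favours a call in that direction. Without BCAS mouse 1 the log2 fold change of H2-Q7 was 3.80. H2-T23, which makes Qa-1 and presents signal peptides to the natural killer receptor CD94/NKG2, went from 17.1 to 26.4 CPM over the sham mice to 39.6 to 182 CPM over the BCAS mice (log2 fold change 2.20, SE 0.40, adjusted p = 0.00625). H2-M3, which presents formylated peptides, was at 2.27, H2-Q4 at 3.10, and H2-T24, H2-T10, H2-Q1, H2-T22 and H2-K2 at 1.58, 1.53, 1.32, 1.20 and 1.11. Of these, H2-K2 lost its call in 8 of 18 alternatives and H2-Q1 in 6, including the fits without sham mouse 1 (edgeR adjusted p = 0.0662 and 0.0744). H2-T10 lost its call without the same mouse (0.0506), and H2-T22 without BCAS mouse 1 (log2 fold change 0.94). H2-Q2, H2-M5 and H2-Bl, at 0.47, -0.18 and -0.87, did not pass the test. These genes are close copies of one another, and reads that match more than 1 of them were not counted, so their levels are uncertain.

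Class I-like genes outside the MHC had log2 fold changes of 0.44 to 1.64, within the range of the other heavy chains. Of 4 tested, Hfe, a partner of the transferrin receptor, had a log2 fold change of 1.64, Mr1, which presents vitamin metabolites, of 1.52, and Fcgrt, the neonatal Fc receptor, of 1.10, and all 3 were called, whereas Cd1d1, which presents lipids, was at 0.44 (edgeR adjusted p = 0.516). Hfe overlapped between the groups (6.90 CPM in BCAS mouse 2 and 9.05 CPM in sham mouse 2), and its call was lost with limma-voom, with the replicate block and without sham mouse 1, 3 or 4 (adjusted p from 0.0527 to 0.0680). Fcgrt lost its call without BCAS mouse 1 (log2 fold change 0.93). The products of these genes pair with B2m as well. Among 8 genes of peptide loading and trimming, only the trimming peptidase Erap1 was called, a share near the 11% of all tested genes. It went from 14.6 ± 1.09 to 46.3 ± 20.4 CPM (SD, n = 4 each; log2 fold change 1.67, SE 0.29, edgeR adjusted p = 0.00528). The loading chaperones Pdia3, Tapbpl and Calr had log2 fold changes of 0.75, 0.59 and 0.53 and passed the adjusted p without reaching the fold threshold, and the general chaperone Canx was at 0.23 (adjusted p = 0.110).

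**Figure D3:**
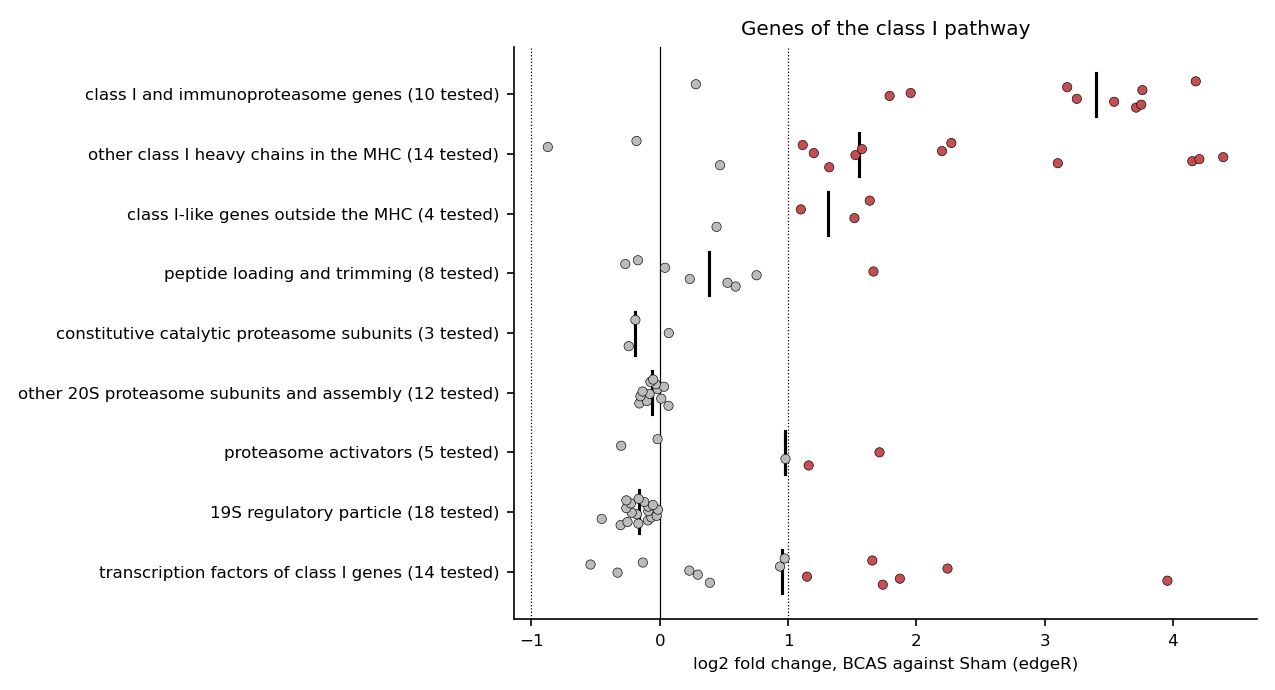
log2 fold change of BCAS against sham mice for each tested gene of the class I pathway other than the receptors, by step; red points are genes called higher, grey points genes not called, vertical bars medians and dotted lines the fold threshold. The 20S and 19S genes sit close to 0 while the 10 class I and immunoproteasome genes have a median of 3.40, with Psmb10 alone near 0.

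The genes listed as receptors and co-receptors of class I were sparse in sham cortex, and whether each product binds class I was not examined. Of 10 symbols in the tables, 7 had too few counts to be tested, while Cd8a, Lilrb4a and Pirb passed the filter with the help of their counts in BCAS mice, which favours calls in that direction. Cd8a, the co-receptor of cytotoxic T cells, had 0 to 3 counts per sham library and 273, 14, 101 and 47 counts in BCAS mice 1 to 4. The myeloid inhibitory receptors Lilrb4a and Pirb went from 0.172 to 0.603 CPM and from 0.286 to 0.998 CPM over the sham mice to 8.29 to 50.2 CPM and 1.19 to 22.6 CPM over the BCAS mice. Their log2 fold changes were 6.12 (SE 0.64, edgeR adjusted p = 0.00147) and 4.03 (SE 0.88, adjusted p = 0.0122), while limma-voom gave Pirb an adjusted p of 0.105. The ligands that induce the pathway were at the limit of detection. Ifnb1, Ifna2 and Ifna4 had 0 counts in all 8 libraries, which allows up to 0.187 CPM in the smallest library by counting error alone. Ifng had 0, 1, 0 and 0 counts in sham mice and 3, 1, 4 and 0 counts in BCAS mice.

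The order of the 10 genes by level per length changed between the groups. In sham mice it was B2m (104 CPM per kilobase), H2-D1 (21.4), Psmb10 (15.3), H2-K1 (13.9), Tapbp (6.89), Tap2 (1.77), Tap1 (0.839), Psmb8 (0.698), Psmb9 (0.416) and Nlrc5 (0.143). Neighbours overlapped over the 4 mice for H2-D1 and Psmb10, for Psmb10 and H2-K1, and for Tap1 and Psmb8, and were apart for the others. In BCAS mice the mean levels were 1214 CPM per kilobase for B2m, 288 for H2-D1, 182 for H2-K1, 26.7 for Tapbp, 18.6 for Psmb10, 9.48 for Psmb8, 7.98 for Tap1, 6.13 for Tap2, 3.77 for Psmb9 and 2.60 for Nlrc5. All neighbours overlapped between mice there, other than H2-K1 and Tapbp. Within a library each gene was above the next in all 4 BCAS mice except for Tapbp over Psmb10 and Tap1 over Tap2 (3 of 4 mice each).

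The BCAS mice differed in degree and shared a pattern. All 10 genes ranked the BCAS mice in the same order, with mouse 1 highest, then mouse 3, mouse 4 and mouse 2. That order was found in 17.7% of all tested genes and in 69.3% of the genes called higher. Averaged over the 10 genes, log2 CPM above the sham mean was 3.69 in mouse 1, 1.52 in mouse 2, 3.07 in mouse 3 and 2.54 in mouse 4. Summed microglial markers were above the sham mean by 3.57, 1.73, 2.56 and 2.67 in these mice on the same log2 scale, so mice 3 and 4 changed places. Markers of T and NK cells, at 4.17, 0.93, 3.47 and 2.14, kept the order of the class I genes. So did those of monocytes and neutrophils (6.10, 1.59, 5.42 and 3.47), B cells (4.69, 1.42, 4.11 and 1.81) and border-associated macrophages (2.06, 0.67, 1.66 and 1.24). The neuronal markers, at -1.75, -0.45, -0.76 and -1.03, were furthest below sham in mouse 1 and closest in mouse 2.

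**Figure D4:**
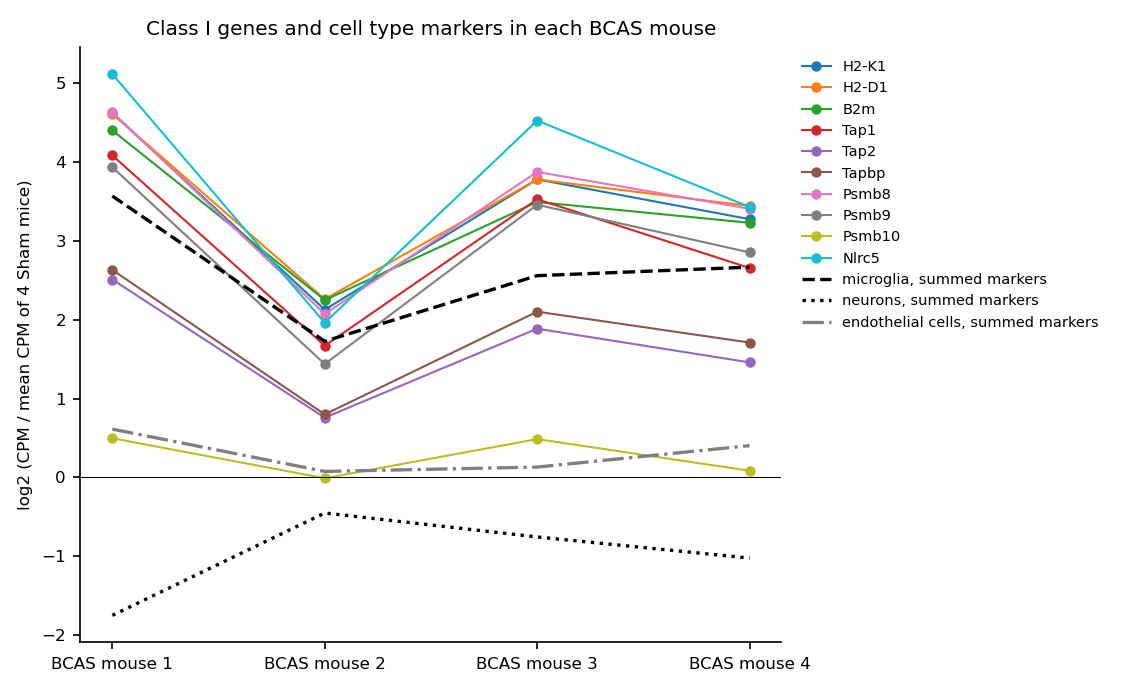
log2 of each gene's CPM over the mean of the 4 sham mice, in each BCAS mouse, with the summed CPM of microglial, neuronal and endothelial markers treated in the same way; lines only join the values of 1 gene or list. All genes but Psmb10 lie above 0 in all 4 mice, with Nlrc5 at 5.12 in mouse 1 and 1.96 in mouse 2, and the microglial sum lies among them.

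Set over the summed microglial markers of the same library, the genes fell into groups. The heavy chains, B2m, Psmb8 and Nlrc5 were still higher in BCAS mice, by 0.83 (H2-K1), 0.91 (H2-D1), 0.72 (B2m), 0.87 (Psmb8) and 1.14 (Nlrc5) on the log2 scale, with no overlap between groups. Tap1 and Psmb9, at 0.40 and 0.29, overlapped. Tap2, Tapbp and Psmb10 were lower relative to these markers, by -0.97, -0.82 and -2.34, with no overlap. The markers themselves rose, so any gene that rises less than they do is lower in this ratio. How many of all tested genes are lower in the same way was not counted. This ratio was chosen after the values were seen and carries no test, and it does not show in which cells the transcripts lay. Endothelial markers, a further cell type that carries class I, were at 258 to 337 CPM in sham and 319 to 462 CPM in BCAS mice, with none of 6 called by edgeR, DESeq2 or limma-voom and 2 past the adjusted p of each.

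Over 12428 tested genes (mean count 100 or more), those whose profile over the 8 libraries was most like the mean profile of the 10 genes were Top2a, a topoisomerase of dividing cells, Hmox1, the inducible heme oxygenase, Gpsm3, a G-protein regulator of leukocytes, Naglu, a lysosomal hydrolase, and Adcy7, an adenylyl cyclase. They deviated from that mean profile by a root mean square of 0.132, 0.140, 0.141, 0.141 and 0.147 in log2 CPM. Psmb9, at 0.176, was the closest of the 10 genes to their own mean and Psmb10, at 1.76, the furthest. The remaining genes lay at 0.308 (Tap1) to 0.764 (Tap2), so likeness to the mean profile is not likeness to each gene.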

How the data were processed

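Per the labels and the methods, Trim Galore removed adapters from the paired-end reads, HISAT2 placed them on mm10 and the authors then counted pairs over gene exons. They deposited raw counts, 1 table per mouse, with no normalization. The file headers name featureCounts 2.0.1 with GENCODE vM20 and no strand option, whereas the submitters' processing notes name featureCounts 1.6.3. Reads that fall on more than 1 gene or place were not counted under the recorded options, which lowers genes with overlaps or close copies. The exon length in the tables, as deposited, was used for CPM per kilobase. Symbols came from a gene name table that matched 54723 of 54752 identifiers.

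Groups follow the sample labels. The counts were fitted with edgeR 4.0.16 in R 4.3.3, with TMM scaling (CPM are TMM-scaled), filterByExpr (10 counts at least, 15 in total), leaving 17136 genes, and the quasi-likelihood test of 4 BCAS and 4 sham libraries without covariates, with Benjamini-Hochberg adjustment over all tested genes. A gene was called at an adjusted p under 0.05 and a log2 fold change beyond 1 in size. The study used limma, which is among the alternatives. Ratios within a library were put to exact two-sided permutation tests in Python 3.11.15 with scipy 1.17.1, adjusted over 5 ratios. On data simulated from these libraries, edgeR recovered 172 of 192 changed genes among 16539 tested, with 4 false calls. The simulation started from the sham means, with the same spread setting for both groups and few genes changed, in either direction. It therefore does not cover the wider spread among BCAS mice or the many genes called higher. No pair of libraries was a duplicate (the lowest chi-square per degree of freedom between 2 libraries was 4.64).

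Named genes are the 10 genes, the called genes of the pathway lists, the constitutive counterparts, up to 3 genes of each list with the largest change, and the 5 most alike in profile. One gene of the lists is not reported here. The genes and lists were chosen with earlier results of these data known. Alternatives were other scalings (DESeq2 size factors, upper quartile, library size), other filters, DESeq2 1.42.0, limma 3.58.1 (voom, and log2(CPM + 1)), thinned counts, a replicate block, other fold thresholds and leaving out each mouse.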

Additional observations from a re-analysis of the deposited data

Results flagged for a closer look

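Among 160 groups of 4 mice examined, 11 held a mouse further from the other 3 than Dixon's 95% value allows, and chance flags about 1 in 20 groups. Of the 10 genes, B2m was low in sham mouse 3 (75.3 CPM, against 93.3 to 95.0 CPM in the other sham mice), and Nlrc5 was high in sham mouse 2 (1.498 CPM, against 1.080 to 1.147 CPM). Without these mice the log2 fold change of B2m was 3.46 and that of Nlrc5 was 4.28, both called. Sham mouse 2 also stood high in Hfe (9.05 CPM, against 5.29 to 5.55 CPM), in Psma2 (69.95 CPM, against 65.4 to 65.8 CPM), in the summed markers of T and NK cells (4.68 CPM, against 2.29 to 2.47 CPM) and in the summed interferon ligands, where 1 count of Ifng (0.0624 CPM) stood against 0 in the other sham mice. Sham mouse 3 stood high in choroid plexus markers (750 CPM, against 12.3 to 43.6 CPM) and in Adcy7 (9.55 CPM, against 8.93 to 8.99 CPM), and low in oligodendrocyte markers (3024 CPM, against 4642 to 4864 CPM). In sham mouse 4, Irf1 (8.99 CPM, against 7.33 to 7.61 CPM) and Psma5 (50.8 CPM, against 46.9 to 47.5 CPM) were high. No mouse of the BCAS group was this far from the others.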

How the results depend on the processing

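Over 180 refits of the 10 genes, each kept its direction and its side of the threshold. The same 9 genes were called under every scaling, filter, tool and left-out mouse tried, with 8 under glmTreat, whose test is of a log2 fold beyond 1, where Tap2 was lost. The highest adjusted p of Nlrc5 was 0.0402, with limma-voom. Left-out mice gave log2 fold changes of 3.23 to 4.02 for H2-K1, 3.66 to 4.53 for Nlrc5 and 0.15 to 0.43 for Psmb10. Of 770 refits of the other 43 named genes, 734 stayed on the same side of the threshold, which includes genes that were never called. A call was lost in 31 and gained in 5 (all Psme2), and none reversed. Left-out mice ended the calls of H2-K2 (sham 1 to 3, BCAS 1, 3 and 4), H2-Q1 (sham 1, 3 and 4, BCAS 4), Ciita (sham 1, 2 and 4, BCAS 3), Hfe (sham 1, 3 and 4), H2-T10 (sham 1) and of H2-T22, Fcgrt, Psme1 and Stat2 (BCAS 1), and limma on log2(CPM + 1) those of H2-K2, H2-Q1 and H2-T10. Over all genes, 739 were called higher and 5 lower with glmTreat, 3291 and 2199 by adjusted p alone, and 145 lower with limma on log2(CPM + 1). Genes called lower numbered 86 to 559 with 1 mouse left out (86 without sham mouse 1, 559 without BCAS mouse 2). Relative to summed microglial markers, which rose themselves, Tap2 (-0.97), Tapbp (-0.82) and Psmb10 (-2.34) turned to lower, as any gene that rises less than the markers must. Without BCAS mouse 2, the ratios of Psmb8 to Psmb5, Psmb9 to Psmb6 and heavy chains to B2m had an adjusted p of 0.0476 (exact permutation tests). The first 2 had 0.143 without any one sham mouse. With so few mice these values move in coarse steps, and they also depend on the other ratios in the adjustment. With 1 mouse left out, the log2 difference ranged from 3.31 to 4.27 for Psmb8 to Psmb5, from 2.56 to 3.31 for Psmb9 to Psmb6 and from 0.12 to 0.22 for heavy chains to B2m. The replicate numbers are names only (correlations of same-numbered mice -0.103 to 0.001). With the replicate number as a block, 1624 genes were called higher and 185 lower, with 9 of the 10 genes among them, and H2-Q1, H2-K2 and Hfe were lost. The cause was not tested. The receptors and interferons had few or no counts, which limits what can be said of them.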
